A study of Mus musculus with 9 samples.

Results

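The nuclear pore and nuclear transport genes of the mouse gave 45 of the 5281 circRNAs counted in sorted cells of the embryonic cortex. They were chosen by the symbol of the parental gene, that is a symbol beginning with Nup, Xpo or Ipo and a digit, or with Kpna, Kpnb or Tnpo, or equal to Ranbp2 or Tpr. This rule was set with earlier results of these data known. The parental gene came from the gene list of the study for 23 circRNAs and from the same-strand GENCODE vM1 gene containing the coordinates for 21. For 1 further circRNA, of Kpna1, the symbol was garbled in that list and was read from the gene identifier beside it. Together 19 genes were represented, of which 12 gave at least 2 circRNAs and 7 gave 1. Each circRNA is named here by its gene and by the exons that it spans in the annotated transcript, so that circXpo1(3–10) runs from exon 3 to exon 10 of Xpo1 (CiCo_mm9_circ_000865).

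CircRNAs are RNAs whose last exon is spliced back to the start of an earlier one, which leaves a closed ring that resists digestion by the exonuclease RNase R. The cells came from the lateral cortex of C57BL/6 embryos at E14.5, freed of meninges and ganglionic eminences. The pregnant mice were heterozygous for both the Btg2RFP and the Tubb3GFP reporter, in which RFP marks progenitors committed to differentiation and GFP marks neurons. Proliferative progenitors (PP) lacked both colours, differentiative progenitors (DP) had RFP without GFP, and newborn neurons (N) had GFP, so that PP was defined by the absence of reporters. Each group had 3 biological replicates, whether a replicate pooled embryos is not given in the sources used here, and the total RNA of all 9 libraries was treated with RNase R before strand-specific sequencing. Any read on the counted bases was counted, whether or not it crossed a backsplice, and fewer cells holding a circRNA and fewer copies per cell cannot be told apart.

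Total counts lay between 2962787 and 8015311 per library. Because 27 entries outside the set took 94.7% to 98.2% of them, only 83572 (PP replicate 3) to 287983 (N replicate 2) counts remained for the others. PP replicate 3 and N replicate 1 were the shallowest of their groups and stood apart from their replicates, with Spearman's rho across all circRNAs of 0.707 to 0.834 against 0.923 and 0.948 between the other replicates of PP and N. A nuclear pore or transport circRNA had a median of 4 counts in N replicate 1 and of 8 in PP replicate 3, against 14 to 31 in the other libraries, and a floor of 3 counts amounts to 0.340 CPM (DP replicate 1) to 1.39 CPM (PP replicate 3). Of the marker lists, 15 of 17 tested circRNAs of progenitor genes were called lower in N than in PP and 14 of 14 of neuronal genes higher. Of all tested, 14.4% were called lower and 13.6% higher. The circRNAs came from 6 of 14 progenitor genes and 4 of 14 neuronal genes, and those of Ptprz1 were not called. As the lists were chosen with earlier results of these data known, they are no independent check of the labels. The listed genes of endothelium, microglia, oligodendrocyte precursors, erythroid cells and meninges had no circRNA in the table, nor had those of DP, so that the label of DP was not checked by its own markers, and the summed level of the interneuron list, all from Erbb4, was 0 to 2.32 CPM in PP, 0 to 0.248 CPM in DP and 3.43 to 6.75 CPM in N.

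Nuclear pores are the channels of the nuclear envelope. Their scaffold is built from a Y-shaped complex and an inner ring of nucleoporins, a few of which span the membrane, while nucleoporins with phenylalanine-glycine repeats fill the channel and filaments extend to the cytoplasm and into a nuclear basket. Importins and exportins carry proteins and RNAs through it, taking up and releasing cargo according to the GTP state of Ran, and dividing and differentiating cells rely on the same machinery, which is taken apart and rebuilt at each mitosis.

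The backsplice junctions identify the circRNAs on which the comparisons turn. Those below belong to the 8 with the smallest p over any cell type among the Xpo1 circRNAs and the circRNAs that passed the test in some comparison. They were read from the mm9 genome in the direction of the transcript, with the last 15 bases of the last exon in lower case and the first 15 bases of the first exon in capitals.
circXpo1(3–5): ggaaccagtgtgaagTAATCTATGCCAGCA
circXpo1(3–10): acattaatttacaagTAATCTATGCCAGCA
circXpo1(18): cagcaggctaccaaaGTTCATACATTTTAT
circIpo11(13–27): gagtttaatcaggagCCTTGCACTGAAGTA
circIpo11(4–5): aagctattctatgatTGCTCTCTCAGAAGA
circIpo11(2–5): aagctattctatgatACTTCCATGGATCTC
circNup155(26–28): ggcggacatgcacagATTAAACAGTTACAA
circNup205(32–38): atggagcacggcaagATGCTGGCCCTGGCT
The first pair of Xpo1 junctions share the 15 capitals, since both circRNAs begin at exon 3, and circIpo11(4–5) and circIpo11(2–5) share the lower-case side, since both end at exon 5. In circXpo1(3–5), circXpo1(3–10) and circIpo11(2–5) the exon entered at the backsplice holds the annotated start codon, whose ATG begins at base 7 of the capitals, so that 6 of their exonic bases are not coding. circXpo1(18) is exon 18 of Xpo1 joined to itself.

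All 45 circRNAs began and ended at annotated exon boundaries, with AG before and GT after the circle in the genome, which the prediction tool asks for and which held for 99.9% of the 5097 circRNAs of the table with such boundaries. They spanned 1 to 15 exons (median 3, as in the whole table) and 135 to 1539 exonic bases (median 458 against 449). None contained the first or the last exon of its transcript. Exon 2 was the first exon in 8 of 45 (17.8%), against 27.4% of the table. The exonic sequence was coding throughout in 41 (91.1% against 81.4%) and had a length divisible by 3 in 21 (46.7% against 37.8%). These shares are descriptions, since circRNAs of a gene overlap.

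The length over which reads were counted showed that introns were part of some counts. In the circRNAs that it cloned, the study could not detect the predicted introns. The paper proposes that reads on introns may come from lariats. It left introns out of its later analyses but kept them in its list of expressed features. In 35 of the 45 circRNAs it equalled the exonic length plus 1 base per exon, in circIpo11(13–27) it was 28 bases shorter, and in 9 it was greater (20% of the set, against 11.1% of the table). In each of the 9 the excess equalled, in exactly 1 way, the length of named introns less 1 base each. In circXpo1(3–5) it was the 3369-base intron between exons 4 and 5, in circXpo1(6–10) the 351-base intron between exons 8 and 9, and in circXpo1(3–10) both of them. In circXpo1(10–13) it was the 1064-base intron between exons 12 and 13. The others were circNup205(3–7) with an intron of 599 bases, circNup210(38–39) with 1 of 78, circTpr(8–10) with 1 of 80, circIpo9(6–10) with introns of 183 and 92 bases, and circTnpo2(5–12) with 5 introns. The 4 multi-exon circRNAs of Xpo1 thus had 1 or more counted introns each, while exon 18 was counted alone. The counts of such circRNAs cannot be split here into reads on exons and reads on introns, and they need not measure the circle alone.

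**Figure D1:**
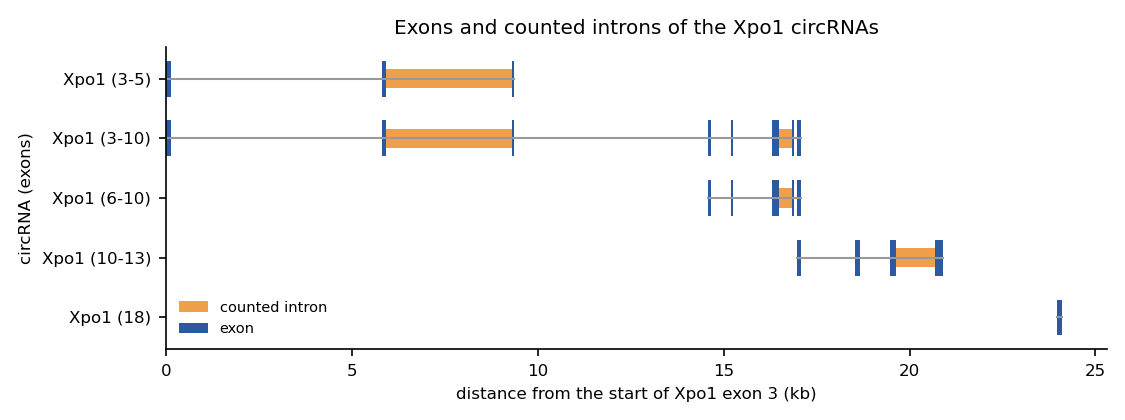
Exons (tall blue bars) and counted introns (orange bars) of the 5 Xpo1 circRNAs, by distance in kb from the start of exon 3. The intron of 3369 bases fills most of the counted length of the circRNAs that span exons 4 and 5, and the circRNA of exons 3 to 10 covers the same features as those of exons 3 to 5 and 6 to 10 together.

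Nested circRNAs shared reads. In 9 pairs a circRNA of the set lay within another of the same gene, and in all 9 the outer one had at least as many counts as the inner one in every library, as in 99.4% of 1905 such pairs of the table. The counted lengths of circXpo1(3–5) and circXpo1(6–10) add up to 4491 bases, which is the counted length of circXpo1(3–10), and the counts of the latter were 92.0% to 95.4% of the sum of the former over the 9 libraries. Results for nested circRNAs are therefore not independent of each other.

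Levels between genes were compared per kilobase of counted length (RPKM, from CPM scaled by TMM), averaged over the 9 libraries. They ran from 2.41 ± 1.42 RPKM (SD, n = 9) for circNup160(11–17) to 22.4 ± 12.8 RPKM for circXpo5(25–26), with a median of 6.16 RPKM over the set and of 6.76 RPKM over the table. The highest after the latter were circXpo1(18) with 19.7 ± 9.62 RPKM and circTnpo2(5–12) with 14.4 ± 3.92 RPKM. circIpo9(6–10) had 13.8 ± 3.09 RPKM and circIpo7(2–4) had 11.8 ± 4.66 RPKM. The SDs of neighbours in this order overlap. Per circRNA and not per length, circXpo1(3–10) and circTnpo2(5–12) were the most abundant, with 21.3 ± 7.98 and 20.7 ± 5.64 CPM (SD, n = 9). Per length the former had 4.74 ± 1.78 RPKM, its counted length being the greatest of the set. Exons make up 765 of those 4491 bases, so that the order per length depends on the introns counted in some circRNAs. The SDs over the 9 libraries include differences between the cell types.

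A subset of these circRNAs was lower in newborn neurons than in PP. Of the 43 that passed the filter on low counts, 11 were lower in N and 0 were higher at an adjusted p under 0.05 (edgeR's quasi-likelihood test with Benjamini-Hochberg adjustment over 4406 circRNAs), where 14.4% of all tested circRNAs were called lower and 13.6% higher. At an unadjusted p under 0.05, 23 were lower and 2 higher (20.3% and 17.4% of all tested). DESeq2 called 9 lower and 0 higher, where it called 13.8% of all tested lower. The 11 came from 4 genes: the export receptor Xpo1 (4 circRNAs), the import receptor Ipo11 (3) and the inner ring nucleoporins Nup155 (2) and Nup205 (2). The log2FC of N versus PP was below 0 in 38 of 43 (54.1% of all tested), and its median was -0.94 over the set and -0.10 over all tested circRNAs. In 21 the 3 libraries of N lay below the 3 of PP, which held for 19.1% of all tested, and in 2 they lay above, circKpna1(4–5) and circTnpo2(5–12) (17.4%). The number of calls depended on single libraries, as it was 3 without N replicate 3, 4 without PP replicate 2, 5 without PP replicate 1 and 22 without PP replicate 3 (21 lower, 1 higher). In the same order 10.7%, 12.7%, 12.3% and 16.9% of all tested circRNAs were called lower. Without PP replicate 3 and N replicate 1 together the number was 25 (24 lower, 1 higher), where 20.6% of all tested were called lower. Scaled by total counts the number was 0, where 9.94% of all tested were called lower. There 40 of 43 log2FCs were below 0, with a median 0.84 below that of all circRNAs, which itself moved by -0.28.

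**Figure D2:**
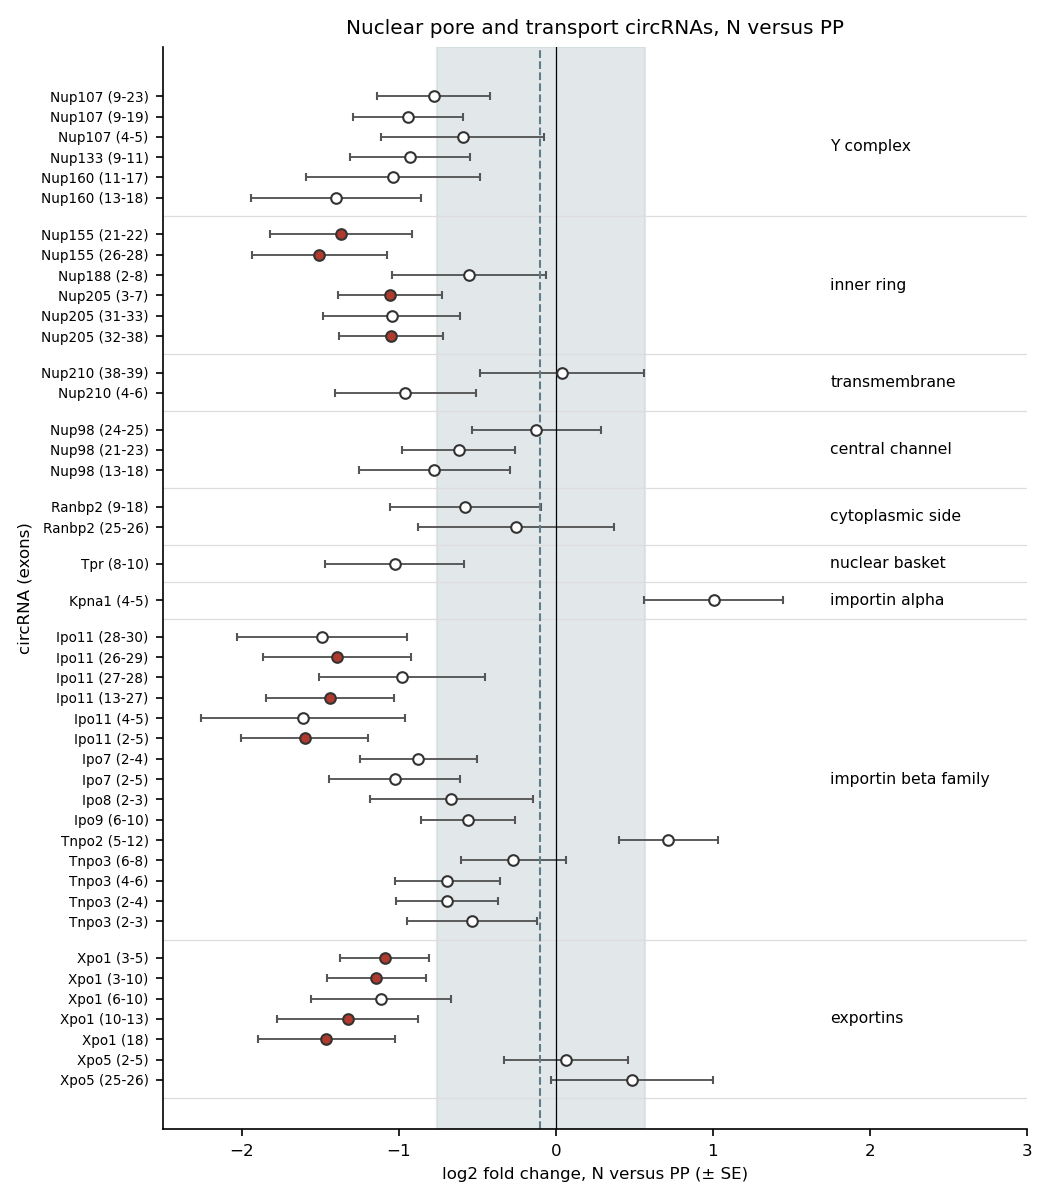
The log2FC of N versus PP (± SE) of the 43 tested circRNAs, grouped by the role of the parental gene and named by exons, with filled points for an adjusted p under 0.05. The dashed line and the grey band are the median (-0.10) and the middle 50% of all 4406 tested circRNAs, and 38 of 43 points lie left of 0.

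Among the exportins, Xpo1 (CRM1), which carries proteins with leucine-rich export signals out of the nucleus, had 5 circRNAs, with log2FCs of N versus PP between -1.09 and -1.46. circXpo1(3–10) (chr11:23161835-23178925, plus strand) had 32.2, 32.8 and 24.6 CPM in PP, 19.5, 24.4 and 17.9 CPM in DP and 8.86, 16.1 and 15 CPM in N. All PP libraries were above all DP libraries, and all DP libraries above all N libraries. It was 2.21-fold lower in N than in PP (log2FC -1.14 ± 0.32 (SE), adjusted p = 0.0137), and it was called in each of the 9 fits that left out 1 library. Exons make up 765 of its 4491 counted bases.

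circXpo1(3–5) (chr11:23161835-23171205, plus strand), which lies within it, had 20.3, 22.8 and 16.3 CPM in PP, 12.8, 14.2 and 10.9 CPM in DP and 8.42, 10.2 and 9.15 CPM in N. Here too the 3 groups did not overlap. It was 2.13-fold lower in N than in PP (log2FC -1.09 ± 0.29 (SE), adjusted p = 0.0101), a call that was missed without N replicate 3 (adjusted p = 0.0511). Exons make up 307 of its 3678 counted bases. circXpo1(6–10) (chr11:23176427-23178925, plus strand), the other nested circRNA, had 14.5, 11.6 and 9.76 CPM in PP, 8.15, 11.6 and 7.83 CPM in DP and 0.886, 7.10 and 7.19 CPM in N. Its N libraries lay below those of PP, N replicate 1 held 2 counts, and the difference did not pass the test (log2FC -1.11 ± 0.44 (SE), adjusted p = 0.0783).

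circXpo1(10–13) (chr11:23178806-23182726, plus strand), which shares exon 10 with the foregoing, had 21.8, 21.2 and 13.9 CPM in PP, 12.6, 15.4 and 13.2 CPM in DP and 1.33, 10.6 and 9.31 CPM in N. N replicate 1, with 3 counts, was far below the other N libraries, and all N libraries were below those of DP and PP. It was lower in N than in PP (log2FC -1.32 ± 0.45 (SE), adjusted p = 0.0399), but 6 of the 9 fits without 1 library missed the call, with adjusted p up to 0.107. circXpo1(18) (chr11:23185801-23185935, plus strand), a single exon with no counted intron and no base in common with the other 4, had 4.16, 4.04 and 3.72 CPM in PP, 2.83, 3.58 and 1.99 CPM in DP and 0.443, 1.28 and 2.12 CPM in N. Its PP libraries were close together and above all others. It was 2.75-fold lower in N (log2FC -1.46 ± 0.44 (SE), adjusted p = 0.0213), a call missed without PP replicate 1, PP replicate 2 or N replicate 2 (adjusted p of 0.0604, 0.0610 and 0.0891).

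**Figure D3:**
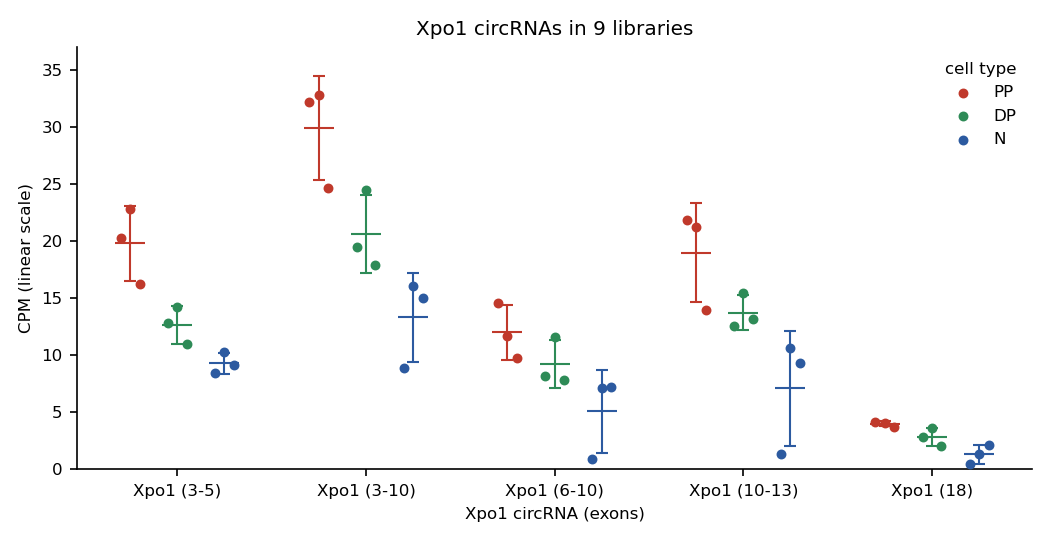
CPM of the 5 Xpo1 circRNAs, named by exons, in the 3 libraries of PP, DP and N (points in replicate order from left to right), with the group mean and SD. In every circRNA the N libraries lie below the PP libraries, and for the circRNAs of exons 3 to 5 and 3 to 10 the 3 groups do not overlap.

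Xpo5, the exporter of microRNA precursors, differed from Xpo1 in its values. circXpo5(25–26) (chr17:46375322-46375936, plus strand), the highest of the set per length, had 3.12, 1.78 and 3.72 CPM in PP, 3.62, 2.22 and 2.11 CPM in DP and 7.98, 2.79 and 2.29 CPM in N. N replicate 1 was the highest library and the groups overlapped (log2FC 0.49 ± 0.51 (SE), adjusted p = 0.540). circXpo5(2–5) had a log2FC of 0.06 ± 0.39 (SE), with overlapping groups.

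The importin beta family, the largest group with 15 circRNAs of 6 genes, gave 3 calls in N versus PP, all lower and all from Ipo11, where 14.4% of all tested were called lower. Ipo11 imports ubiquitin-conjugating enzymes among others, and its 6 circRNAs had log2FCs of -0.98 to -1.61. circIpo11(2–5) (chr13:107700280-107715236, minus strand) had 3.38, 3.72 and 2.79 CPM in PP, 3.62, 3.58 and 3.35 CPM in DP and 1.77, 0.814 and 1.14 CPM in N. The PP and DP libraries overlapped and all N libraries were lower than both. It was lower in N than in PP (log2FC -1.60 ± 0.40 (SE), adjusted p = 0.00812) and than in DP (log2FC -1.66 ± 0.38 (SE), adjusted p = 0.00608), which were the smallest adjusted p of the set in either comparison, and of the fits without 1 library only that without N replicate 2 missed them (adjusted p of 0.0620 and 0.0585).

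circIpo11(4–5), which lies within it (chr13:107700280-107700896, minus strand), had 1.30, 1.62 and 1.86 CPM in PP, 1.59, 1.85 and 2.24 CPM in DP and 1.33, 0.116 and 0.653 CPM in N. In N it held 1 to 4 counts per library, and it was lower in N than in DP (log2FC -1.88 ± 0.58 (SE), adjusted p = 0.0351) but not called against PP (log2FC -1.61 ± 0.65 (SE), adjusted p = 0.0819). Without N replicate 2, where it had 1 count, the log2FC of N versus DP was -1.11 (adjusted p = 0.223), and the call was also missed without any 1 of the DP libraries and without N replicate 3 (adjusted p of 0.0626 to 0.104).

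circIpo11(13–27) (chr13:107637426-107676837, minus strand), in the second part of the gene, had 9.09, 8.09 and 6.04 CPM in PP, 6.68, 5.06 and 4.60 CPM in DP and 0.886, 4.30 and 2.45 CPM in N. Its N libraries lay below all others, and it was 2.71-fold lower in N than in PP (log2FC -1.44 ± 0.41 (SE), adjusted p = 0.0157), with the call missed without PP replicate 1 or N replicate 3 (adjusted p of 0.0553 and 0.0785). circIpo11(26–29) (chr13:107613036-107638416, minus strand) had 3.90, 3.40 and 1.39 CPM in PP, 2.15, 3.08 and 2.36 CPM in DP and 1.33, 1.51 and 0.653 CPM in N. PP replicate 3 lay among the N libraries, and the difference of N and PP (log2FC -1.39 ± 0.47 (SE), adjusted p = 0.0393) lost its call in 6 of 9 fits without 1 library, with adjusted p up to 0.180. The remaining Ipo11 circRNAs, circIpo11(28–30) and circIpo11(27–28), had log2FCs of -1.49 ± 0.54 and -0.98 ± 0.53 (SE) and were not called.

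The other importins and transportins were not called in N versus PP. Ipo7, which imports ribosomal proteins and histone H1, had log2FCs of -0.88 ± 0.37 for circIpo7(2–4) and -1.03 ± 0.42 for circIpo7(2–5), which share exons 2 to 4. Ipo8, an importer of Argonaute proteins, had -0.67 ± 0.52 and Ipo9, an importer of histones, had -0.56 ± 0.30. The 4 circRNAs of Tnpo3, the import receptor of serine-arginine rich splicing factors, lay between -0.27 and -0.69.

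Against the direction of most, Tnpo2 and Kpna1 had higher values in N. Tnpo2 imports RNA-binding proteins such as heterogeneous nuclear ribonucleoproteins, and circTnpo2(5–12) (chr8:87568311-87571634, plus strand), the highest importin per length, had 11.2, 15.4 and 19.1 CPM in PP, 17, 22.9 and 26.1 CPM in DP and 28.4, 20.6 and 25.8 CPM in N. Every N library was above every PP library, and the DP libraries overlapped both. The difference did not pass the test (log2FC 0.72 ± 0.32 (SE), adjusted p = 0.111), but did without PP replicate 3 (adjusted p = 0.0291). Kpna1 is an importin alpha, the adaptor that binds nuclear localisation signals, and circKpna1(4–5) (chr16:36009402-36013073, plus strand) had 1.04, 1.13 and 1.39 CPM in PP, 1.70, 1.97 and 1.24 CPM in DP and 1.77, 2.09 and 2.94 CPM in N. Its N libraries were above those of PP by 2.01-fold in the fit, at 3 to 18 counts per library in the 2 groups, and this was not called either (log2FC 1.01 ± 0.44 (SE), adjusted p = 0.109).

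The inner ring of the pore, whose nucleoporins hold the scaffold to the membrane, gave 4 calls among 6 circRNAs, all lower in N and from 2 genes, where 14.4% of all tested were called lower. circNup155(26–28) (chr15:8097143-8098451, plus strand) of Nup155 had 3.64, 3.88 and 4.18 CPM in PP, 2.83, 3.21 and 1.74 CPM in DP and 0.443, 1.75 and 1.31 CPM in N. The PP libraries were close together and above all others, and the N libraries, at 1 to 15 counts, were below DP except for N replicate 2, which lay just above DP replicate 3. It was 2.84-fold lower in N than in PP (log2FC -1.51 ± 0.43 (SE), adjusted p = 0.0168), a call missed without PP replicate 2 or N replicate 3 (adjusted p of 0.0504 and 0.0640). circNup155(21–22) (chr15:8089851-8091359, plus strand), the highest of the ring per length, had 2.60, 2.43 and 3.25 CPM in PP, 1.93, 1.36 and 1.61 CPM in DP and 1.77, 1.05 and 0.653 CPM in N. All DP and N libraries lay below PP, and its call (log2FC -1.37 ± 0.45 (SE), adjusted p = 0.0349) was missed in 6 of 9 fits without 1 library, with adjusted p up to 0.164.

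Nup205 had 3 circRNAs. circNup205(3–7) (chr6:35136433-35142038, plus strand), with a counted intron, had 8.31, 11.6 and 14.4 CPM in PP, 7.36, 7.89 and 7.95 CPM in DP and 7.09, 5.93 and 3.76 CPM in N. PP replicate 3 was the highest library and all N libraries were below PP and DP (log2FC -1.05 ± 0.33 (SE), adjusted p = 0.0281). Without N replicate 3 its log2FC was -0.81 (adjusted p = 0.157), and the call was also missed without PP replicate 2 or N replicate 2 (adjusted p of 0.0712 and 0.0606). circNup205(32–38) (chr6:35182398-35191448, plus strand), at the other end of the gene, had 7.53, 7.60 and 4.65 CPM in PP, 4.42, 4.56 and 3.73 CPM in DP and 2.22, 3.37 and 3.76 CPM in N. Its PP libraries were above all others (log2FC -1.05 ± 0.33 (SE), adjusted p = 0.0283), with the call missed without either of PP replicates 1 and 2 or N replicates 2 and 3 (adjusted p of 0.0602 to 0.103). circNup205(31–33), which overlaps it in exons 32 and 33, had a log2FC of -1.05 ± 0.44 (SE) and circNup188(2–8) of Nup188 had -0.55 ± 0.49, neither of them called.

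In the Y complex, the outer scaffold of the pore, 0 of 6 tested circRNAs were called by edgeR or DESeq2, where edgeR called 14.4% of all tested lower. At an unadjusted p under 0.05, 4 were lower, which held for 20.3% of all tested. The log2FCs of N versus PP of all 6 lay between -0.59 and -1.40. Nup107 gave 4 circRNAs, of which circNup107(9–23), circNup107(9–19) and circNup107(9–10) are nested and start at exon 9. circNup107(9–10) (chr10:117214185-117214720, minus strand), the highest of the complex per length, did not pass the filter and had 1.04, 1.29 and 3.72 CPM in PP, 1.02, 0.370 and 1.61 CPM in DP and 0.443, 0.698 and 0.817 CPM in N. These values rest on 1 to 13 counts per library. circNup133(9–11) of Nup133 had a log2FC of -0.93 ± 0.38 and circNup160(11–17) and circNup160(13–18) of Nup160, which overlap, had -1.04 ± 0.55 and -1.40 ± 0.54 (SE).

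The remaining nucleoporins gave 0 calls by edgeR or DESeq2 among 8 tested circRNAs, where edgeR called 14.4% of all tested lower. At an unadjusted p under 0.05, 2 were lower (circNup210(4–6) and circTpr(8–10)), which held for 20.3% of all tested. For Nup210, which spans the nuclear membrane, circNup210(38–39) (chr6:90965818-90966075, minus strand) had 1.56, 2.26 and 1.39 CPM in PP, 2.15, 1.23 and 0.870 CPM in DP and 3.10, 1.16 and 2.12 CPM in N. The groups overlapped (log2FC 0.04 ± 0.52 (SE), adjusted p = 0.974), while circNup210(4–6) had -0.96 ± 0.45 (SE). For Nup98, a nucleoporin of the channel, circNup98(26) (chr7:109277458-109277615, minus strand), a single exon that did not pass the filter, had 1.30, 1.94 and 0.465 CPM in PP, 0.566, 0.617 and 0.745 CPM in DP and 1.33, 0.349 and 0.490 CPM in N. It held 1 to 12 counts per library, and the log2FCs of the other 3 Nup98 circRNAs were between -0.12 and -0.77.

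Ranbp2, the large nucleoporin of the cytoplasmic filaments, gave circRanbp2(25–26) (chr10:57951321-57953503, plus strand) with 2.86, 1.62 and 0.930 CPM in PP, 2.38, 2.22 and 1.12 CPM in DP and 0, 2.44 and 1.31 CPM in N. N replicate 1 had 0 counts, which allows a level of up to 1.33 CPM at 3 counts, and N replicate 2 was the highest but for PP replicate 1 (log2FC -0.25 ± 0.62 (SE), adjusted p = 0.809). circRanbp2(9–18) had a log2FC of -0.58 ± 0.48 (SE). Tpr, the scaffold of the nuclear basket, gave circTpr(8–10) (chr1:152253592-152254707, plus strand) with 4.42, 4.04 and 1.86 CPM in PP, 2.60, 2.47 and 2.98 CPM in DP and 0.443, 2.33 and 1.80 CPM in N. PP replicate 3 lay among the N libraries, and the difference did not pass the test (log2FC -1.03 ± 0.44 (SE), adjusted p = 0.103).

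Neither step of the lineage alone gave many calls. From PP to DP, 0 of 43 passed the test by edgeR, where 1.86% of all tested did, and 2 had an unadjusted p under 0.05, circXpo1(3–5) and circNup205(32–38), both lower in DP. Such a p was held by 11.4% of all tested, 5.22% lower and 6.22% higher. DESeq2 also called 0. The log2FC was below 0 in 34 of 43 (54.4% of all tested), with a median of -0.36, against -0.06 for all tested, and 10 circRNAs had all 3 DP libraries below the 3 PP libraries and 0 had them above (8.4% and 10.9% of all tested). From DP to N, 2 of 43 passed, both lower and both of Ipo11 (circIpo11(4–5) and circIpo11(2–5)), where 9.8% of all tested were called lower and 9.03% higher. The log2FC was below 0 in 38 of 43 (51.2% of all tested), with a median of -0.59, against -0.02 for all tested, and in 20 circRNAs the N libraries lay below the DP libraries (21.2% of all tested). The count of 2 became 1 when any of the 3 DP libraries or N replicate 3 was left out, as circIpo11(4–5) was missed. Without N replicate 2 both were missed and circIpo11(13–27) was called instead (adjusted p = 0.0432). Calls over the whole table fell in these fits too. Of all tested, 6.99% to 7.54% were called lower without 1 of the DP libraries. Without N replicate 2 it was 7.29%, against 9.8% with all libraries. Without N replicate 3, 574 of all 4583 tested were called in either direction, against 830 of 4406 with all libraries. Without PP replicate 3 and N replicate 1 together, 6 were called in the step from PP to DP, 5 of them lower, and 6 in that from DP to N, all lower. In that fit 659 of all 4714 tested circRNAs were called from PP to DP, and 4.90% of all tested were called lower. From DP to N 17.3% of all tested were called lower. Both steps share the DP libraries and the sum of their log2FCs is that of N versus PP.

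**Figure D4:**
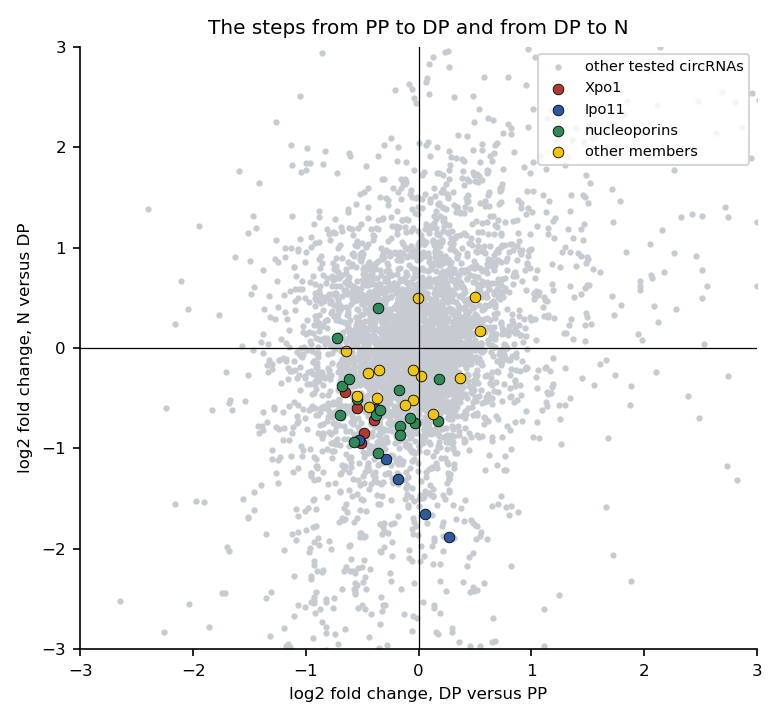
The log2FC of DP versus PP (horizontal) and of N versus DP (vertical) for the 43 tested circRNAs (coloured) and all other tested circRNAs (grey, of which 229 lie beyond the axes). The Xpo1 points lie left of and below 0 on both axes, and the Ipo11 points reach lowest on the vertical axis.

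The test over any difference among the 3 cell types called 5 of 43, where 25.1% of all tested passed. They were circXpo1(3–5), circXpo1(3–10), circIpo11(13–27), circIpo11(2–5) and circNup155(26–28). The count was 0 without N replicate 3, 12 without PP replicate 3, 5 without N replicate 1, and 1 when any other library was left out. The share of all tested that passed in these fits is not given here, so the counts need not concern the set alone. In N versus PP the share of all tested called lower was 10.7% without N replicate 3 and 16.9% without PP replicate 3. By FC alone, with an FC of at least 1.5 as up and of at most 0.67 as down and no p, 29 of 45 changed in some step (60.3% of the table). From PP to DP 9 were down and 0 up (19.9% and 12.7% of the table), and from DP to N 21 were down and 1 was up (23.6% and 23.7%). The most frequent course was steady from PP to DP and then down in N, in 19 of 45 (14.6% of the table), among them all 6 of Ipo11. Another 7 were down in DP and then steady (8.22%) and 2, both of Nup155, were down in both steps (7.42%). circXpo1(3–10) was among the 16 with no change in either step (39.7%), although it was called in N versus PP. Only circXpo5(25–26) was up in a step, that from DP to N (steady then up in 13.0% of the table), while 0 were up in DP and then steady (4.83%) and 0 were up in both steps (6.38%).

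CircRNAs of the same gene were then compared with each other. In 12 genes with at least 2 tested circRNAs, 36 circRNAs were tested for a log2FC different from that of the others of their gene (edgeR's diffSpliceDGE), and 0 were called in N versus PP, where 0.0653% of 3065 were, with 0 also at an unadjusted p under 0.05. The differences in log2FC ran from -0.49 to 0.51. In DP versus PP and in N versus DP 0 were called as well (0% and 0.0326% of the 3065), with 0 at an unadjusted p under 0.05, and the smallest unadjusted p was 0.213, of circIpo11(4–5) in N versus DP. Only 2 of the 3065 were called in N versus PP, so that these tests do not show the circRNAs of a gene to be alike.

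The median log2FC of N versus PP was below 0 with and without counted introns. The 9 with counted introns had a median log2FC of -1.05, with 4 called lower, all of Xpo1 or Nup205. The 34 tested ones without had a median of -0.90, with 7 called lower, where 14.4% of all tested were called lower. The former include nested circRNAs of Xpo1, which share reads, and the latter include nested circRNAs of other genes. Members of either are thus not independent of each other. Library by library, the values of the set summed to 223 to 285 CPM in PP, 205 to 232 CPM in DP and 131 to 173 CPM in N, reads of nested circRNAs being counted more than once. All N libraries were thus below all DP libraries, and N replicate 1 was the lowest.

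**Figure D5:**
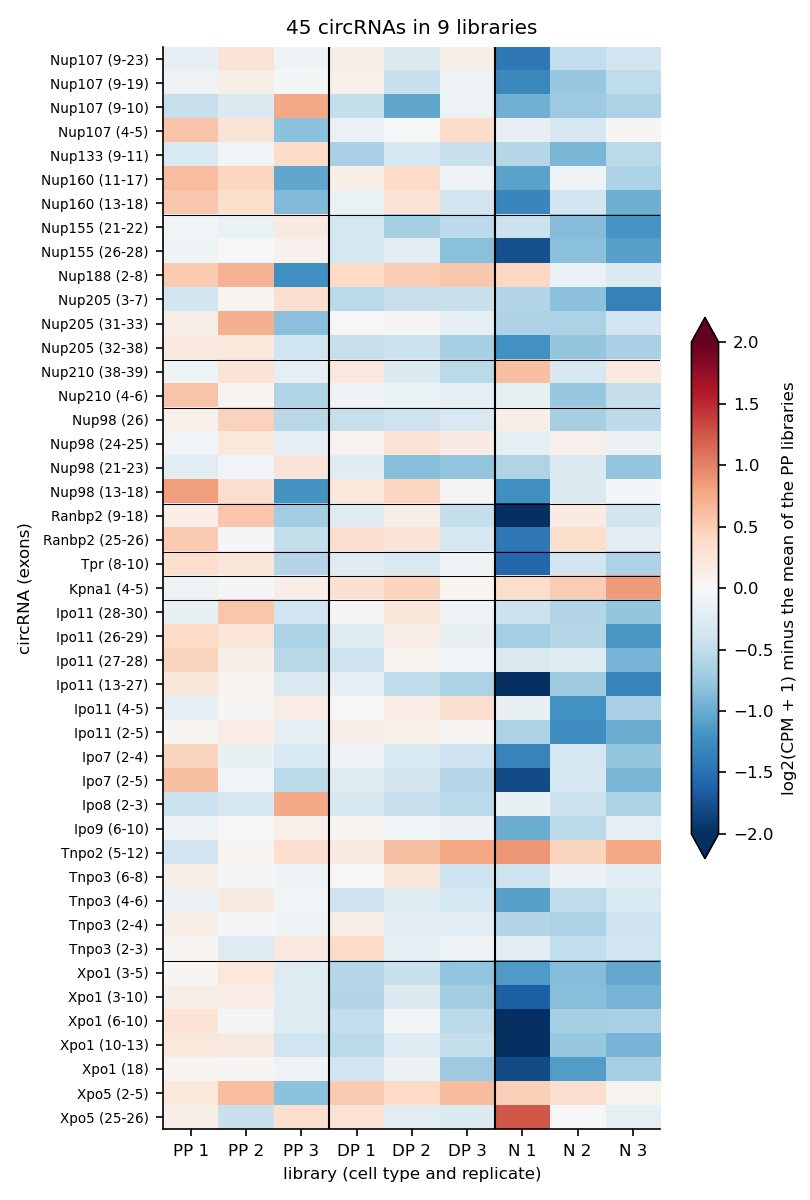
Level of each of the 45 circRNAs, named by exons and ordered by role, in the 9 libraries, as log2(CPM + 1) minus the mean of the 3 PP libraries, with colours that end at -2 and 2. Blue prevails in the N libraries, most deeply in N replicate 1, while Tnpo2 (5-12) and Kpna1 (4-5) are red in all 3, Xpo5 (25-26) is reddest in N replicate 1, and PP replicate 3 departs from the other PP libraries in both directions.

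The introns beside a circRNA can pair when they hold inverted copies of a sequence, which is one known route to backsplicing. Over the 500 bases before and after each circle, the longest stretch whose exact reverse complement lay on the other side had a median of 10 bases (range 8 to 28) in the set, against 9 in the table. It reached 20 bases in 2 of 45 (4.44%, against 1.79% of the table), circNup205(32–38) and circNup107(9–19). Those of circNup205(32–38), shown because it is the longest match of the set and this circRNA fell in N, lie at chr6:35182106-35182133 and chr6:35191577-35191604 of mm9 (plus strand), 264 bases before and 128 bases after the circle, with the matching bases in capitals.
before circNup205(32–38): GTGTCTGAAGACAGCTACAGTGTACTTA
after circNup205(32–38): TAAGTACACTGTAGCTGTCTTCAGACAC
For circXpo1(3–10) the longest match was 15 bases. A match is a property of the sequence, and pairing was not measured.

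Other genes of nuclear transport were taken from a list. Of its 38 genes, 12 had circRNAs in the table, 16 in all, of which 15 were tested. In N versus PP 2 were called lower and 0 higher, where 14.4% of all tested were called lower, and the median log2FC was -0.43. At an unadjusted p under 0.05, 4 were lower and 0 higher, which held for 20.3% and 17.4% of all tested. DESeq2 called 3, where it called 1213 of all 4406 tested. The 2 called by edgeR were both of Cse1l, the exporter that returns importin alpha to the cytoplasm. CiCo_mm9_circ_003565 of Cse1l had 7.79, 6.79 and 4.18 CPM in PP, 5.89, 5.30 and 4.22 CPM in DP and 2.22, 2.56 and 2.94 CPM in N, and its N libraries were below all others (log2FC -1.28 ± 0.35 (SE), adjusted p = 0.0117). CiCo_mm9_circ_003564 of Cse1l had 16.1, 14.1 and 9.30 CPM in PP, 7.25, 9.75 and 6.71 CPM in DP and 0.886, 6.86 and 4.90 CPM in N, with all N libraries below those of PP (log2FC -1.50 ± 0.44 (SE), adjusted p = 0.0187). From DP to N, 1 was lower, CiCo_mm9_circ_002168 of Rangap1, the activator of the GTPase of Ran (9.8% of all tested were called lower), with 8.57, 8.09 and 10.7 CPM in PP, 12.0, 17.3 and 16.8 CPM in DP and 7.98, 6.52 and 7.51 CPM in N. Its DP libraries were above all others (log2FC -1.08 ± 0.29 (SE), adjusted p = 0.0168). From PP to DP 0 were called by edgeR or DESeq2, where edgeR called 1.86% of all tested. At an unadjusted p under 0.05, 1 was higher, which held for 6.22% of all tested.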

How the data were processed

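The table held whole-number read counts per circRNA, deposited by the authors, who aligned strand-specific reads to mm9 with gsnap (ENSEMBL Genes v67), predicted circRNAs with find_circ and counted with featureCounts; the submitters' processing notes name Subread 1.6.0 and bcl2fastq 1.8.4. A second deposited column held the counted length in bases. All 9 libraries (3 each of PP, DP and N) entered one edgeR 4.0.16 quasi-likelihood model (R 4.3.3, filterByExpr, TMM, no block) over the 4406 of 5281 circRNAs that passed the filter, with Benjamini-Hochberg adjustment and a threshold of 0.05. CPM used TMM-scaled sizes, and RPKM divides CPM by the counted length in kb. The common biological coefficient of variation was 0.296. Total counts per library are given above, and floors of 3 counts cover counting error only. FCs without a test came from DESeq2 1.42.0. Exons were taken from GENCODE vM1 on mm9, which may differ from the annotation used by the authors. Values in each library are given for all Xpo1 circRNAs, for each that passed a test, and for the highest per length in each functional group. The members and gene lists were chosen with earlier results of these data known. The fit was tested on simulated data with 4-fold changes in N, and smaller changes were not simulated. In N versus PP, 80.4% of 194 changed circRNAs were recovered and 3.7% of 162 calls were false. Within genes, 43.7% of 71 lone 4-fold changes were recovered. Replicate numbers were not used as pairs (correlation of deviations of same-numbered libraries -0.26 to 0.30). Alternatives were DESeq2, other scalings and filters, a replicate block, fits of 2 cell types, and fits without single libraries or without both PP replicate 3 and N replicate 1.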

Additional observations from a re-analysis of the deposited data

How the results depend on the processing

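All 13 log2FCs that passed the test were below 0 under every alternative in which they could be fitted, but how many passed depended on the setting. For N versus PP, 11 were called as reported, 0 with scaling by total counts, 3 with at least 10 counts in every library (5 members left), 4 with the cell types of the contrast alone (33 members left), 25 without PP replicate 3 and N replicate 1, and 3 to 22 without 1 library. The share of all tested circRNAs called lower was, in the same order, 14.4%, 9.94%, 9.59%, 9.59%, 20.6% and 10.7% to 16.9%. For N versus DP the 2 calls became 1 with DESeq2, 0 with at least 10 counts in every library, 6 without both libraries and 1 to 3 without 1 library. There 9.8% of all tested were called lower as reported. This share was 9.33% with DESeq2, 3.88% with at least 10 counts in every library and 17.3% without both libraries. In either direction 830 of 4406 were called as reported. Without 1 library, 552 of 4618 (without DP replicate 2) to 1239 of 4693 (without PP replicate 3) were called. For DP versus PP the 0 became 6 without both libraries, where 659 of all 4714 tested circRNAs were called. Over any cell type the 5 became 0 with scaling by total counts, 2 with at least 10 counts in every library, 19 without both libraries and 0 to 12 without 1 library. The share of all tested that passed over any cell type is not given here for the alternatives. In N versus PP, 1235 of all 4406 tested were called as reported, 649 of 4406 with scaling by total counts and 1988 of 4714 without both libraries. With a replicate block, 7 were called in N versus PP, 1 in N versus DP, 0 in DP versus PP and 1 over any cell type. With that block 12.2%, 8.51% and 0.113% of all tested were called lower in N versus PP, N versus DP and DP versus PP. Whether the replicate numbers pair the libraries is not given in the sources used here, and the deviations of same-numbered libraries correlated at -0.26 to 0.30. The count changed by FC alone (29) and the count called within genes (0) kept within 1.5 times under each alternative run. The causes were not tested. Of the log2FCs of named circRNAs, 284 alternative values stayed called or stayed uncalled, 65 lost the call and 8 gained it. Some log2FCs of the set that were not called changed sign. In N versus PP, 38 of 43 were below 0 as reported, 40 of 43 with scaling by total counts and 41 of 44 without N replicate 1. In N replicate 1, 29 of 45 circRNAs had fewer than 5 counts.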
